A study of Mus musculus with 16 samples.

Results

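The NR4A genes Nr4a1 (Nur77), Nr4a2 (Nurr1) and Nr4a3 (Nor1) were read from RNA sequencing of brain in aged mice. They were selected by gene symbol and are 3 of the 40481 genes listed. All 3 cleared the minimum of 1 CPM (counts scaled to the library total) in 7 or more mice and were among the 14950 genes tested. The study asked whether adropin, a secreted peptide of the brain, alters the transcriptome of the aged brain. C57BL mice of 18 months (male C57BL/6J in the study's methods) received a daily intraperitoneal injection of the secreted domain, adropin(34-76), at 90 nmol/kg, or of the saline diluent with albumin alone. There were 8 sequenced mice in each group, selected from larger groups that had also undergone behavioral testing under treatment and a fast before tissue collection. The labels give the tissue as brain without a region.

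NR4A proteins are orphan nuclear receptors, transcription factors whose ligand pocket is filled by bulky side chains, so that their activity follows mainly from how much protein is made. They bind DNA as monomers or as homodimers, and Nr4a1 and Nr4a2 also bind as heterodimers with retinoid X receptors. In neurons the 3 genes are immediate early genes, switched on by calcium and cyclic AMP through CREB bound at cAMP response elements (CREs). Nr4a1 is widespread in active cortical and striatal neurons, Nr4a2 is required for midbrain dopamine neurons and marks the claustrum and deep cortical layers, and Nr4a3 is prominent in the hippocampus.

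Nr4a1 (ENSMUSG00000023034) lies on the plus strand of GRCm38 at chr15:101254269-101274795. Nr4a2 (ENSMUSG00000026826) lies on the minus strand at chr2:57106830-57124003, and Nr4a3 (ENSMUSG00000028341) on the plus strand at chr4:48045153-48086447. No other annotated gene overlapped any of them on either strand, so the unknown strand setting of the counting does not mix them with an antisense gene. The exons of each gene together cover 3509, 4059 and 5987 bases in that order.

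The promoter sequences below are shown because CREB acts through the CRE, whose core TGACG recurred in all 3. They are from RefSeq (GRCm38.p6), 5′ to 3′ along the gene, and start 250 bases before the RefSeq transcription start. Capitals mark TGACG read on either strand (CGTCA is the same word on the other strand). Only bases outside the annotated exons are shown, which is chr15:101266596-101266845 for Nr4a1, chr2:57124004-57124253 for Nr4a2 and chr4:48045055-48045152 for Nr4a3. The stretch for Nr4a1 lies within the annotated gene, in no annotated exon, because longer transcripts begin upstream.
Nr4a1: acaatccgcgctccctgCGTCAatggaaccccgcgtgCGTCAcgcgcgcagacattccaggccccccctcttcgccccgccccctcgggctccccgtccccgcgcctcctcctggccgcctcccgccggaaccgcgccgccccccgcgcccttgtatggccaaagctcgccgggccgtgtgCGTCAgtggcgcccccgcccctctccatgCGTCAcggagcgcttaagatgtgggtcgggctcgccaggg
Nr4a2: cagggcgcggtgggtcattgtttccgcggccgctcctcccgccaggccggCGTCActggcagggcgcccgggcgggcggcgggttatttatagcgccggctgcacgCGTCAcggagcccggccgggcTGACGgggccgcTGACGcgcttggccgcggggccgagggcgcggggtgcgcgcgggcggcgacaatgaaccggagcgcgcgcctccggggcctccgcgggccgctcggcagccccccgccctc
Nr4a3: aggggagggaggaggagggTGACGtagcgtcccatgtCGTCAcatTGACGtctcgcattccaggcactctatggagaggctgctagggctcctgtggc

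Each NR4A promoter window of 300 bases (250 before to 50 after the start) held 4 copies of TGACG. In Nr4a1 they began at positions -233, -213, -69 and -40 from the start. In Nr4a2 they began at -200, -144, -123 and -111, and in Nr4a3 at -231, -213, -205 and -147, the last lying in an annotated exon and not shown. Of 32851 RefSeq promoters of this length, 20.8% held TGACG at least once and 0.231% held 4 or more. The windows of Nr4a1, Nr4a2 and Nr4a3 were 72.3%, 81.7% and 64.7% G or C, and these promoters were not matched to them for that content. The full palindrome TGACGTCA, which contains TGACG on both strands, was found in 0 of the 3 windows and in 1.79% of all promoters. AAAGGTCA, the element that NR4A monomers bind, was found in 0 of the 3 and in 1.51% of all. The CArG box of serum response factor was likewise found in 0 of the 3, and in 1.63% of all promoters. The MEF2 consensus, searched on both strands, was found in the Nr4a2 window alone, at -167 to -158 (TTATTTATAG), and in 3.19% of all promoters. Its stricter form, which begins with C and ends with G, was in 0 of the 3 and in 0.557% of all. TATAAA occurred once, on the minus strand of the Nr4a2 window at -164 and within the MEF2 match, and in 13.6% of all promoters on either strand. These are matches of letters within these windows and not measured binding.

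All 3 genes were well measured, with between 816 and 10688 reads in a mouse. Levels are given as CPM after TMM scaling, which corrects each library for its composition. Per kilobase of exon, the median level of Nr4a1 was 29.1 TMM-normalized CPM in treated mice and 53.0 in control mice. The corresponding medians per kilobase were 14.1 and 16.9 for Nr4a2 and 4.79 and 6.59 for Nr4a3. Within a mouse, the level per kilobase of Nr4a1 was 4.34 to 10.8 times that of Nr4a3, and that of Nr4a2 was 1.54 to 5.21 times that of Nr4a3. Nr4a1 exceeded Nr4a2 on this scale by 1.34 to 7.04 times in the saline group. In the adropin group the ratio ran from 0.952 to 3.29, so the order of these neighbours was not the same in every treated mouse.

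Adropin-treated mice had lower Nr4a1 and Nr4a3 than saline-treated mice at an unadjusted p, and Nr4a2 showed no such difference. The fitted level fell by 36.4% for Nr4a1 and fell by 27.4% for Nr4a3. In the main edgeR fit (all mice, no covariate), 0 of the 14950 genes had an adjusted p below 0.05, and DESeq2 gave 5, none of them an NR4A gene. Other edgeR fits gave 2 with mice blocked by the second label number and 3 without adropin mouse 5_5, again no NR4A gene. A fit with a covariate chosen after the data were seen, given below, had 5, with Nr4a3 among them.

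Nr4a1 ranged from 82.7 to 158 TMM-normalized CPM in adropin-treated mice, with a median of 102. In saline-treated mice it ranged from 83.9 to 277, with a median of 186. All 8 treated mice lay below the saline median, and 6 saline mice lay above every treated mouse. The groups still overlapped, because saline mouse 5_4 had 83.9 and saline mouse 6_1 had 124. Means were 114 ± 32.2 and 178 ± 57.1 (SD, n = 8 each). The log2 fold change was -0.65 (standard error 0.20, 95% interval -1.08 to -0.23), a 1.57-fold lower level (edgeR quasi-likelihood test, unadjusted p = 0.00456, adjusted p = 0.873 over all genes). An exact permutation test of the mean log2 values gave p = 0.0208 (two-sided). Of all genes tested, 40 had a smaller p than Nr4a1.

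Nr4a3 ranged from 22.5 to 30.0 TMM-normalized CPM in adropin-treated mice, with a median of 28.7. In saline-treated mice it ranged from 23.9 to 48.6, with a median of 39.4. The treated mice were tightly grouped, with a coefficient of variation of 9.62% against 23.8% in saline, and 6 saline mice lay above all of them. Saline mice 5_4, with 23.9, and 8_3 lay inside the treated range. Means were 27.7 ± 2.66 and 38.2 ± 9.09 (SD, n = 8 each). The log2 fold change was -0.46 (standard error 0.13, 95% interval -0.73 to -0.20), a 1.38-fold lower level (edgeR, unadjusted p = 0.00162, adjusted p = 0.873). The exact permutation test gave p = 0.0117 (two-sided).

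Nr4a2 ranged from 48.8 to 101 TMM-normalized CPM in adropin-treated mice, with a median of 57.1. In saline-treated mice it ranged from 30.2 to 107, with a median of 68.4. The ranges overlapped almost entirely, and both the lowest value (saline mouse 8_3) and the highest (saline mouse 6_1) were in the saline group. Means were 67.6 ± 20.3 and 69.7 ± 23.2 (SD, n = 8 each). The log2 fold change was -0.04 with a 95% interval of -0.48 to 0.40, so a change as large as that estimated for Nr4a3 in the lower direction lay inside the interval (edgeR, unadjusted p = 0.839, adjusted p = 0.971). The exact permutation test gave p = 0.951 (two-sided).

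**Figure D1:**
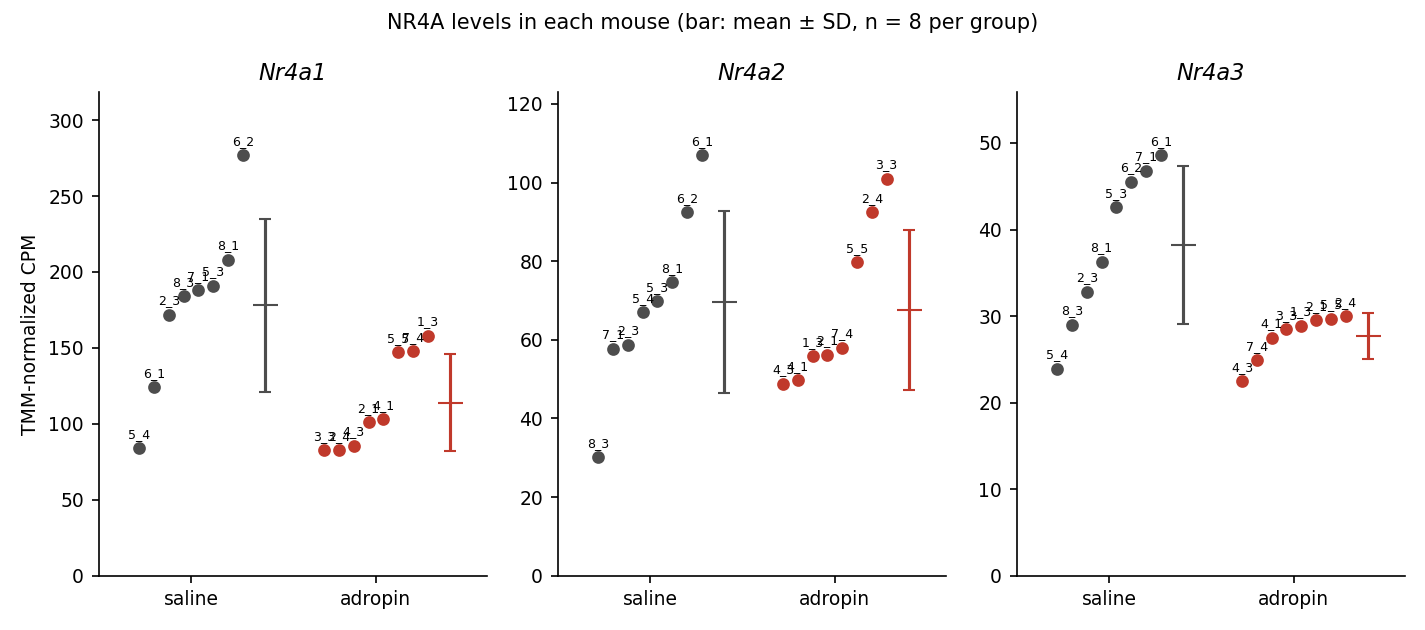
TMM-normalized CPM of each NR4A gene (vertical axis, from 0) in each mouse, ordered by level within saline (grey) and adropin (red) groups and marked with the pair of numbers from its label. The side bar is the mean ± SD of 8 mice. Nr4a1 and Nr4a3 have 6 saline mice above every treated mouse, and Nr4a2 has 1.

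Of the NR4A genes, Nr4a1 alone passed the study's cut-off of a fold change above 1.5 with an unadjusted p below 0.05. It did not pass with mice blocked by either label number, or without saline mouse 6_2. Over all genes tested, 46 passed the cut-off in the lower direction (0.308%) and 18 in the higher direction (0.12%). Without saline mouse 5_3 these counts were 48 and 49. Nr4a1 and Nr4a3 were 2 of 3 genes lower at an unadjusted p below 0.05, a limit that 319 genes (2.13%) reached in the lower and 280 (1.87%) in the higher direction. The sum of 599 (4.01%) is fewer than the 748 that 5% of the tests would give. When 1 mouse was left out, this sum ran from 385 (without adropin mouse 2_4) to 1447 (without adropin mouse 4_3). It was above 748 without adropin mouse 3_3 or 4_3, or without saline mouse 5_3, 6_1 or 7_1. It was below 748 when any other mouse was left out. The percentages of all genes used for comparison are those of the fit with all mice. The edgeR count at an adjusted p below 0.05 was 0.0% of genes. The 8 mice per group are taken as separate animals from the study's description, and RNA of a brain sample cannot tell fewer expressing cells from less RNA per cell.

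The differences between the 3 responses were tested directly within mice. The log2 ratio of Nr4a1 to Nr4a2 averaged 0.75 ± 0.65 with adropin and 1.36 ± 0.77 with saline (SD over 8 mice each), a difference of -0.61 (standard error 0.36, two-sided exact permutation p = 0.106). The log2 ratio of Nr4a2 to Nr4a3 was 0.42 higher in adropin (standard error 0.21, exact permutation p = 0.0620). The ratio of Nr4a1 to Nr4a3 differed by -0.20 (standard error 0.22, exact permutation p = 0.369). Adjusted over these 3 tests the p-values were 0.159, 0.159 and 0.369. That Nr4a2 responded differently from its relatives was therefore not shown.

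Across the nuclear receptor superfamily, 36 of 49 genes were measured well enough to test. Nr4a1 and Nr4a3 had the lowest log2 fold changes of the 36, and Rorb, an orphan receptor of sensory cortical neurons, was the member higher at an unadjusted p below 0.05. It averaged 53.2 ± 16 TMM-normalized CPM with adropin and 41.9 ± 5.8 with saline (SD over 8 mice each), or 0.35 as a log2 fold change (edgeR, unadjusted p = 0.0333, adjusted p = 0.873), and without saline mouse 8_3 it was 0.32 (edgeR, unadjusted p = 0.0563). In that fit the related receptor Rora was instead the member higher at the limit, with a log2 fold change of 0.23 (edgeR, unadjusted p = 0.0242), against 0.13 in all mice (edgeR, unadjusted p = 0.286). Nr2c2, the TR4 orphan receptor, had the highest estimate at 0.37 with a standard error of 0.28 (edgeR, unadjusted p = 0.202). The median log2 fold change of the 36 receptors was 0.02, against -0.00189 over all genes tested.

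**Figure D2:**
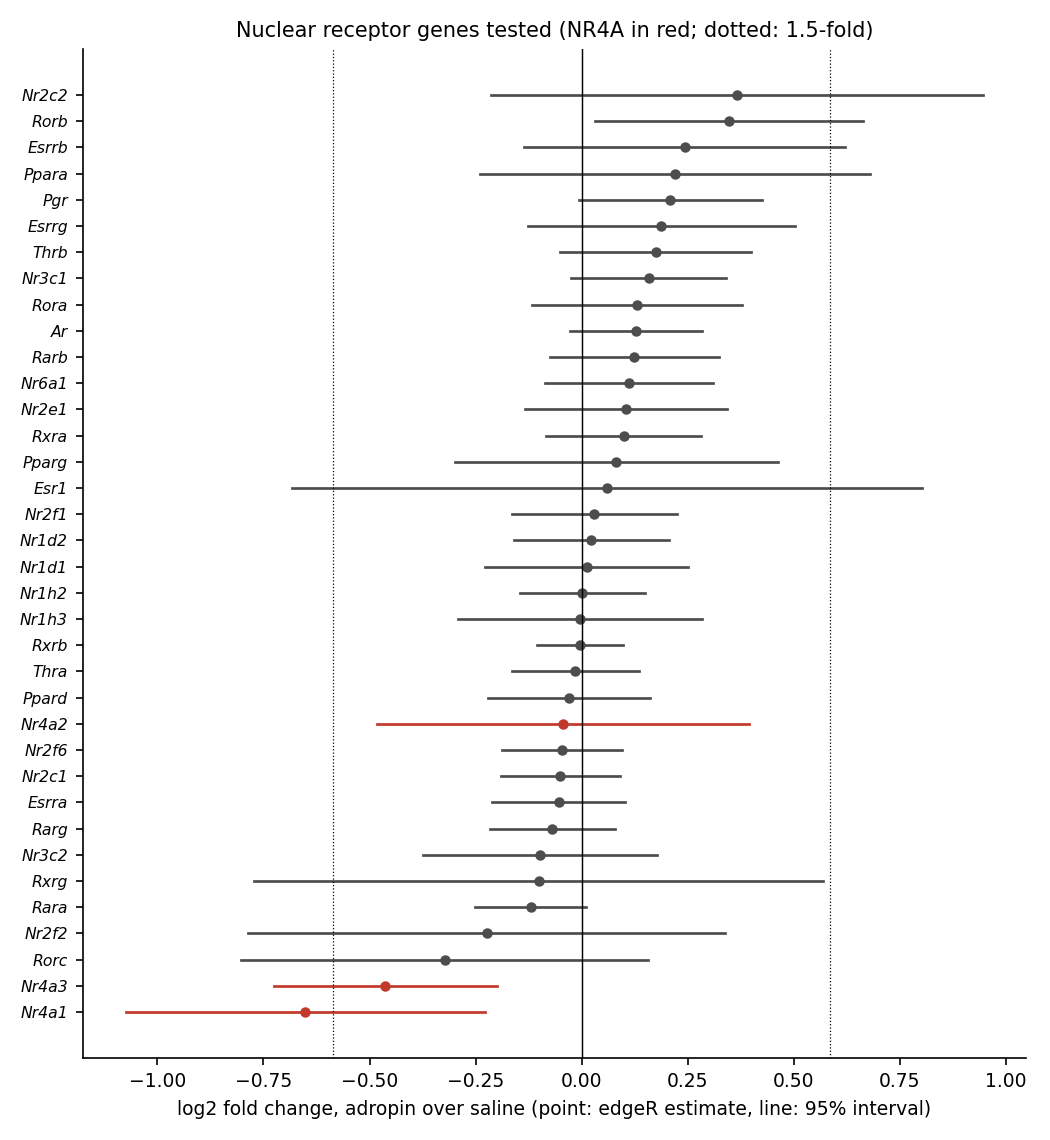
Log2 fold change of adropin over saline (horizontal axis) for the 36 nuclear receptor genes tested, each point being the edgeR estimate from 8 mice per group and each line its 95% interval. Nr4a1 and Nr4a3 are at the lower end with intervals below 0, Nr4a2 is near 0, and dotted lines mark a 1.5-fold change.

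Retinoid X receptors, the dimer partners of Nr4a1 and Nr4a2, had log2 fold changes of 0.10 (Rxra), -0.00 (Rxrb) and -0.10 (Rxrg), with no unadjusted p below 0.05. Of 17 partners and coregulators of the NR4A proteins, 1 reached that limit, where 4.01% of all genes did in either direction. This was the corepressor Ncor1, with a log2 fold change of 0.13 and a standard error of 0.06 (edgeR, unadjusted p = 0.0438, adjusted p = 0.873). Without mouse 8_3 its p was 0.0720 (edgeR, unadjusted).

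Upstream of the NR4A genes, 19 of 20 listed regulators of their induction were tested, and 3 were higher and 0 lower at an unadjusted p below 0.05, against 1.87% and 2.13% of all genes. Mef2c, an activity-regulated transcription factor, had 645 ± 63.2 and 558 ± 65.4 TMM-normalized CPM (adropin and saline, SD, n = 8 each) and a log2 fold change of 0.21 (edgeR, unadjusted p = 0.0135). Camk4, a nuclear kinase of CREB, had a log2 fold change of 0.22 (edgeR, unadjusted p = 0.0239), and Crebbp, the coactivator that CREB recruits, 0.14 (edgeR, unadjusted p = 0.0297). Creb1 itself, at 0.07, did not reach the limit (edgeR, unadjusted p = 0.234). All these adjusted p-values were 0.873, and the list's median log2 fold change was 0.08.

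Of 11 genes listed as NR4A targets, 10 were tested, and 2, Bdnf and Fosl2, were lower at an unadjusted p below 0.05, against 2.13% of all genes. Fosl2, an AP-1 subunit, had a log2 fold change of -0.35 (edgeR, unadjusted p = 0.0314), and Bdnf, a neurotrophin, one of -0.15 (edgeR, unadjusted p = 0.0486, and 0.0547 without mouse 8_3). Both are activity-dependent genes in their own right. The dopaminergic targets of Nr4a2 were at low levels, and none of those tested reached an unadjusted p below 0.05. Slc6a3, the dopamine transporter, reached at most 0.518 TMM-normalized CPM and was not tested. Ddc, the decarboxylase of dopamine synthesis, Slc18a2, the vesicular monoamine transporter, and Ret, a neurotrophic factor receptor, averaged 4.87, 4.25 and 3.36 over all mice. Their log2 fold changes were -0.11, -0.18 and -0.19 (edgeR, lowest unadjusted p = 0.130). Th, the enzyme limiting dopamine synthesis, had a median of 1.42, with 2.58 as the highest value apart from saline mouse 8_3, which had 9.58. Its log2 fold change of -0.92 (edgeR, unadjusted p = 0.0543) became -0.20 without that mouse (edgeR, unadjusted p = 0.494). The median of the 10 targets was -0.16.

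Most other activity-dependent genes were lower in treated mice, as Nr4a1 and Nr4a3 were. Of 20 such genes, a list without NR4A members, 15 were lower at an unadjusted p below 0.05 and 0 higher, with 8 past the cut-off, against the 2.13% and 0.308% of all genes given above. Without saline mouse 8_3 these counts were 13 and 6, with Ier2 and Bdnf crossing the limit on p. The median log2 fold change of the list was -0.54 in all mice. Egr4 had the smallest p, with 38.5 ± 6.77 and 56.2 ± 6.89 TMM-normalized CPM (adropin and saline, SD, n = 8 each) and a log2 fold change of -0.55 (edgeR, unadjusted p = 2.59e-05, adjusted p = 0.387). Egr2 (-1.19), Junb (-0.64), Fosb (-0.53), Klf4 (-0.33), Sik1 (-0.59), Fos (-0.997) and Dusp1 (-0.60) followed in order of p, with the log2 fold change in parentheses. The group means of Nr4a1 and Nr4a3 and of most of these genes were thus lower together, and Egr3 (0.09) and Homer1 (0.10) were the 2 members with estimates above 0. The list was assembled with earlier results of these mice known, so that its count is not independent evidence.

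Nr4a1 and Nr4a2 varied widely between mice of a group, and Nr4a3 varied mainly in the saline group, as given above. The SD of Nr4a1 and Nr4a2 within groups was larger than that of 98.9% and 99.1% of the genes of like level, and that of Nr4a3 larger than 88.8%. For correlations, log2 TMM-normalized CPM were used with each group's mean subtracted, so that the treatment itself contributed nothing. Permutations exchanged mice within a group.

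Nr4a1 followed other immediate early genes closely from mouse to mouse. With Arc, a synaptic gene transcribed on neuronal activity, Pearson's r was 0.931 and Spearman's rho 0.938 over 16 mice (permutation p = 1e-05, the smallest that 100000 permutations can give, and 4e-05, adjusted over 18 relations 0.00018 and 0.00072). It was 0.958 within the adropin group and 0.954 within the saline group (exact permutation p = 0.00141 and 0.00104, n = 8 each). Without mice 3_3 and 5_4, the farthest from the median, r was 0.922. Arc had the highest r with Nr4a1 of all 14949 other genes tested. The values of r with Fos, Dusp1, Egr1 and Junb were 0.879, 0.876, 0.801 and 0.759 (rho 0.818, 0.850, 0.794 and 0.759, adjusted permutation p from 0.00072 to 0.00155 for r). Without the 2 farthest mice they were 0.791, 0.782, 0.845 and 0.710. Within the saline group alone rho was 0.381 for Fos, 0.452 for Dusp1, 0.405 for Junb, 0.905 for Egr1 and 0.714 for Arc, and mouse 5_4 was lowest in Nr4a1. Npas4, a gene restricted to neurons and induced by calcium entry, had r = 0.429 and rho = 0.338 (permutation p = 0.0798 and 0.211). Within groups its r was 0.799 in saline (exact permutation p = 0.0161, adjusted 0.0483) and 0.258 in adropin (exact permutation p = 0.529), a difference that was not tested.

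Nr4a2 did not show this relation with any of the 6 genes. Its r ran from -0.396 with Dusp1 to -0.054 with Npas4 (lowest unadjusted permutation p = 0.141, lowest adjusted 0.317), and its rho from -0.315 to 0.100. For Nr4a3 r ran from 0.143 with Junb to 0.413 with Egr1 (lowest unadjusted permutation p = 0.0974, lowest adjusted 0.251). These directions rested on the farthest mice, since without them r was -0.371 for Junb, -0.278 for Dusp1, -0.114 for Arc and -0.073 for Fos. It stayed above 0 for Egr1 (0.432) and Npas4 (0.279). With Egr1 its rho was 0.488 (permutation p = 0.0450, adjusted 0.135).

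The differences between these relations were tested by correlating each gene with the standardized difference of 2 NR4A genes, 18 relations in all. Nr4a1 and Nr4a2 differed in their relation to Arc (adjusted permutation p = 0.00216), Dusp1 (0.00144), Fos (0.00810), Junb (0.0377) and Egr1 (0.0384). Nr4a1 and Nr4a3 differed for Arc (adjusted permutation p = 0.0377), Dusp1 (0.0384) and Junb (0.0384). For Fos (0.0793) and Egr1 (0.233) this difference did not pass the threshold. Nr4a2 and Nr4a3 differed for Dusp1 (adjusted permutation p = 0.0377) and Fos (0.0384), but this rested on mice 3_3 and 5_4. Without them r was -0.377 and -0.278 with Dusp1, and -0.131 and -0.073 with Fos, for Nr4a2 and Nr4a3 in that order. For Npas4 none of the 3 pairs differed (adjusted permutation p from 0.243 to 0.448).

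**Figure D3:**
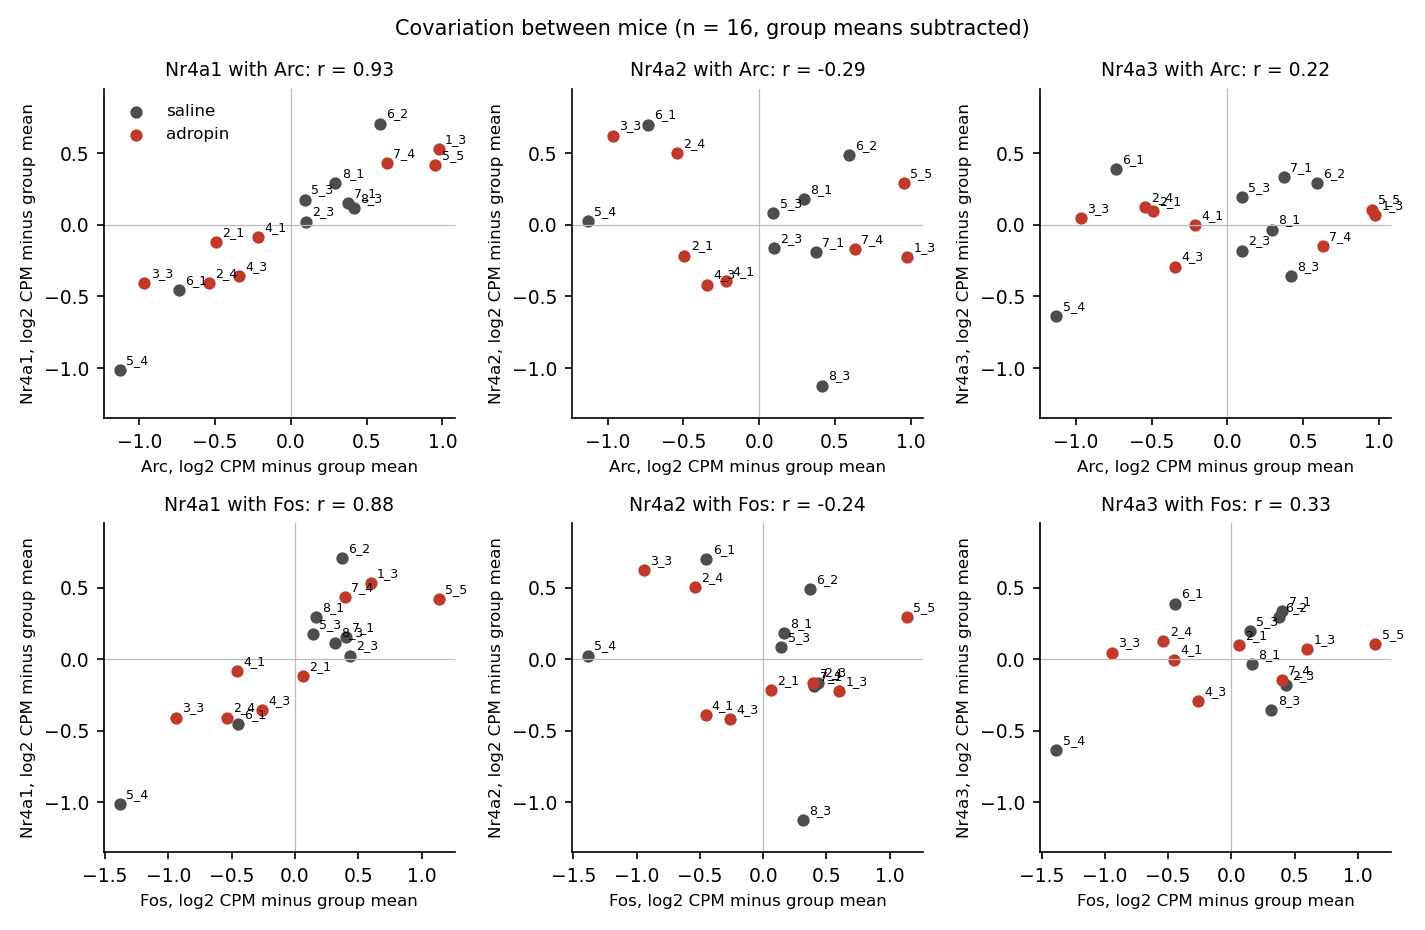
Log2 TMM-normalized CPM minus the group mean for Arc (upper panels) and Fos (lower panels) on the horizontal axes against Nr4a1, Nr4a2 and Nr4a3 on the vertical axes, 1 point per mouse (saline grey, adropin red, 16 mice). Nr4a1 rises along both genes with r of 0.931 and 0.879, and mouse 5_4 is at the lower left, while Nr4a2 and Nr4a3 show no such line.

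Among the NR4A genes themselves, no pair had an adjusted p below 0.05 over all 16 mice. Nr4a2 with Nr4a3 had r = 0.53 and rho = 0.53 over 16 mice (permutation p = 0.0589 and 0.0282, adjusted over 3 pairs 0.177 and 0.0846). Within groups r was 0.556 in adropin and 0.549 in saline (exact permutation p = 0.134 and 0.157, n = 8 each), and without mice 6_1 and 8_3 it was 0.305. Leaving out a single saline mouse gave r = 0.711 without 5_4 (permutation p = 0.00496) and 0.609 without 7_1 (permutation p = 0.0297). Nr4a1 with Nr4a3 had r = 0.410 and rho = 0.176 (permutation p = 0.171 and 0.536). This value rested on saline mouse 5_4, which was low in both genes, since r without it was 0.01. Nr4a1 with Nr4a2 had r = -0.132 and rho = -0.165 (permutation p = 0.641 and 0.545).

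The genes most like each NR4A gene between mice were of different kinds, and they are given as a description of the highest of 14949 correlations. For Nr4a1 they were Arc (r = 0.931), Trib1 (0.930), a pseudokinase of the Tribbles family, Egr2 (0.888), Fos (0.879) and Msrb3 (0.876), a methionine sulfoxide reductase. For Nr4a2 they were B3gat1 (0.932), a glucuronyltransferase of the HNK-1 epitope, Ap1m1 (0.868), a clathrin adaptor subunit, Lztr1 (0.865), Stk25 (0.863), a protein kinase, and Cacnb1 (0.858), a calcium channel subunit. Within groups, r of Ap1m1, Lztr1, Stk25 and Cacnb1 with Nr4a2 was 0.934 to 0.965 in saline and 0.696 to 0.740 in adropin. For B3gat1 it was 0.964 and 0.913. The saline values include mouse 8_3, the lowest in Nr4a2. For Nr4a3 they were Sarm1 (0.953), the NAD-cleaving enzyme of axon degeneration, Tmed8 (0.916), Gramd4 (0.913), 4931428F04Rik (0.913) and Klhl3 (0.913), an adaptor of a ubiquitin ligase. None of the 5 genes nearest to Nr4a2 or of the 5 nearest to Nr4a3 had an unadjusted p below 0.05 for treatment (lowest 0.385 and 0.160, edgeR).

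The number of genes with such high correlations differed between the members. Above r = 0.8 there were 46 genes for Nr4a1, 22 for Nr4a2 and 444 for Nr4a3, and below r = -0.8 there were 23, 15 and 524. No count for a typical gene is set beside these. The first principal component of all genes tested, which held 34.1% of the variance and did not separate the groups (two-sided exact permutation p = 0.268), correlated with Nr4a3 at r = 0.765, with Nr4a1 at 0.547 and with Nr4a2 at 0.243. The second component, with 17.7% of the variance (two-sided exact permutation p = 0.766 between groups), correlated most strongly with Nr4a2, at -0.668, and with Nr4a1 at 0.554 and Nr4a3 at -0.377. What these components stand for was not tested. With the first as a covariate, an alternative chosen after the data were seen, the log2 fold changes were -0.79 for Nr4a1, -0.09 for Nr4a2 and -0.56 for Nr4a3 (edgeR, unadjusted p = 0.000451, 0.689 and 6.70e-06). The adjusted p of Nr4a3 was 0.0251 in that fit, 1 of 5 genes below 0.05, and that of Nr4a1 was 0.321.

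Brain regions differ in NR4A expression, so region and cell type markers were set beside the members. Library totals ran from 35026503 to 70314050 and did not differ detectably between groups (two-sided exact permutation p = 0.452). Of 14 marker scores, that of choroid plexus was lower in adropin-treated mice at an unadjusted p (difference in mean z-score -0.806, two-sided exact permutation p = 0.0413, adjusted 0.490, which was the lowest of the 14). Its summed markers were 11.3 to 73.6 TMM-normalized CPM in treated and 12.6 to 2470 in saline mice. Without mouse 8_3, an alternative added after the data were seen, the difference was -0.456 (exact permutation p = 0.0774). Its part in the NR4A differences was not tested. Neuronal markers were high in every mouse, with Snap25 from 2270 to 3450 TMM-normalized CPM. The cerebellar markers Gabra6 and Pcp2 were at most 0.242 and 0.781 TMM-normalized CPM in 15 mice. The other cerebellar markers listed were present in the same mice: Calb1 at 71.8 to 138, Cbln1 at 8.46 to 32.2 and Car8 at 4.47 to 7.24. Of 6 midbrain dopamine neuron markers, Slc6a3, En1 and Pitx3 were under the minimum level for testing, with En1 at most 0.173 and Pitx3 at most 0.221 in all 16. Slc18a2 (3.41 to 5.66), Ddc (3.24 to 7.13) and Th were above it, while Nr4a2 was at 30.2 to 107 TMM-normalized CPM.

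Saline mouse 8_3 stood apart, with 34.9 TMM-normalized CPM of Gabra6, 28.2 of Pcp2 and 2400 of Ttr, a choroid plexus transcript that reached 311 at most elsewhere. The same mouse had the lowest Nr4a2. Without it the log2 fold changes were -0.65 for Nr4a1 (standard error 0.21), -0.16 for Nr4a2 (0.17) and -0.51 for Nr4a3 (0.12), with unadjusted p-values from edgeR of 0.00726, 0.384 and 0.000605.

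Of 48 relations of the NR4A genes with depth, Gm42418 and marker scores, 0 had an adjusted permutation p below 0.05 for r or rho. Among positive relations the highest r was that of Nr4a2 with the score of claustrum and cortical layer 6 markers (r = 0.700, rho = 0.735, permutation p = 0.00302 and 0.00185, adjusted 0.123 and 0.0888). It was 0.734 without mice 3_3 and 5_4. Nr4a1 was highest with the cortex score (r = 0.662, rho = 0.659, permutation p = 0.00511 and 0.00996, adjusted 0.123 and 0.239) and the endothelium score (r = 0.615, rho = 0.615, adjusted permutation p = 0.123 and 0.243). The highest positive r of Nr4a3 was with Gm42418, a transcript at a ribosomal RNA pseudogene (r = 0.491, rho = 0.541, permutation p = 0.0226 and 0.0253, adjusted 0.217 and 0.243). The lowest negative r was that of Nr4a2 with the midbrain dopamine neuron score (r = -0.613, rho = -0.347, permutation p = 0.0206 and 0.181, adjusted 0.217 and 0.454), and it was -0.135 without mice 6_1 and 8_3. For Nr4a1 the lowest was with the blood score (r = -0.415, rho = -0.429, adjusted permutation p = 0.329 and 0.454). With the cerebellum score Nr4a1 had r = -0.201 and rho = -0.577 (permutation p = 0.452 and 0.0202, adjusted 0.57 and 0.243). That r was -0.609 without mice 3_3 and 8_3. Nr4a2 had r = -0.559 with the thalamus score and -0.522 with the neuron score (rho = -0.391 and -0.435, adjusted permutation p = 0.309 for both r). For Nr4a3 r was -0.572 with the choroid plexus score and -0.506 with the neuron score (rho = -0.365 and -0.482, adjusted permutation p = 0.309 for both r). Without the 2 farthest mice these 4 values were -0.275, -0.308, -0.447 and -0.558. With Gm42418 as a covariate the log2 fold changes were -0.80 for Nr4a1 and -0.54 for Nr4a3 (edgeR, unadjusted p = 0.000856 and 0.000258). The part of tissue composition in the levels of the NR4A genes was not tested.

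**Figure D4:**
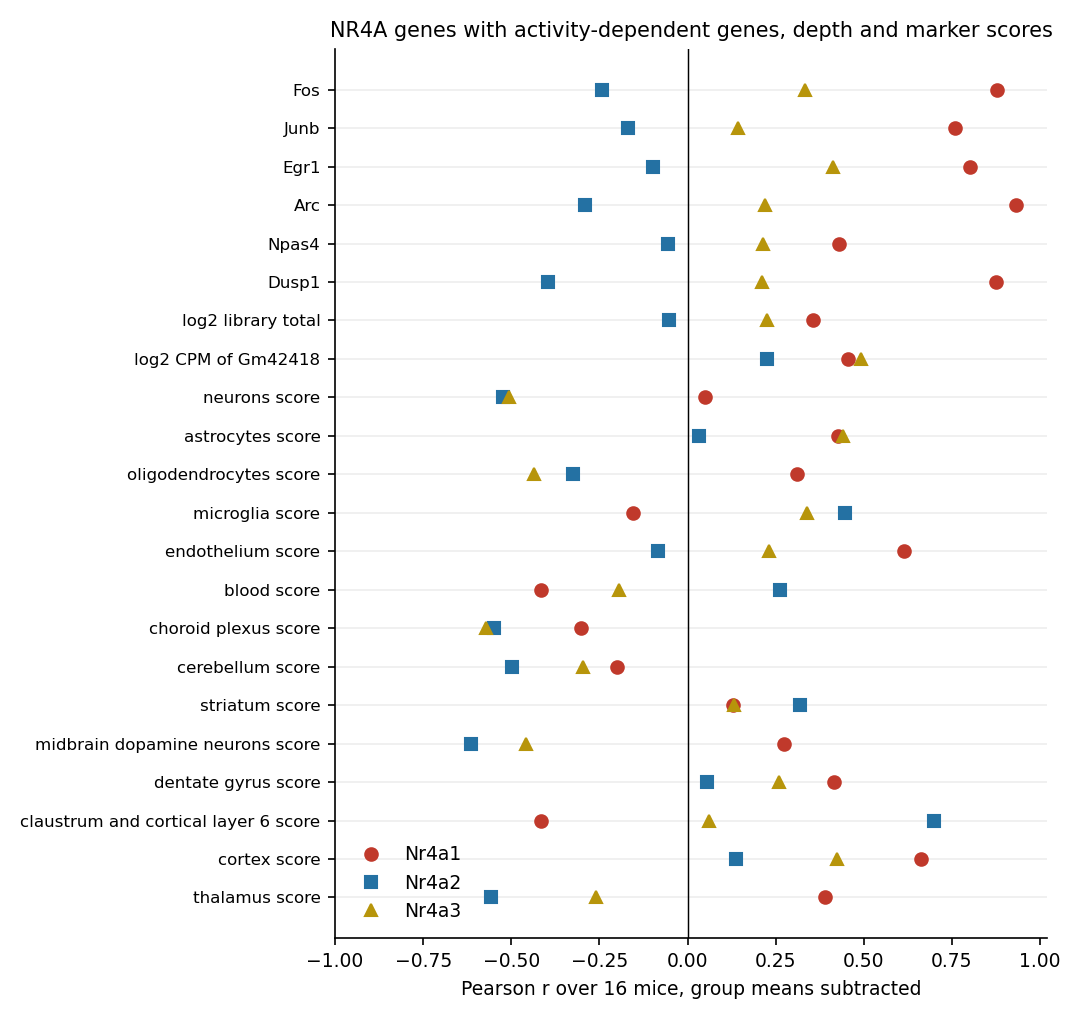
Pearson's r over 16 mice with group means subtracted (horizontal axis) of Nr4a1 (circles), Nr4a2 (squares) and Nr4a3 (triangles) with 6 activity-dependent genes, library total, Gm42418 and 14 marker scores (vertical axis). Nr4a1 is above 0.75 for Fos, Junb, Egr1, Arc and Dusp1, where Nr4a2 is below 0, and Nr4a2 is highest for claustrum and cortical layer 6.

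The estimates for the NR4A genes were compared across settings of the test. Nr4a1 stayed 1.5-fold lower or more in most of them, and its closest approach to no change came with mice blocked by label numbers or without saline mouse 6_2, the mouse with the highest Nr4a1 (277 TMM-normalized CPM). Without that mouse the log2 fold change was -0.54 (edgeR, unadjusted p = 0.0121), and Nr4a1 was under the 1.5-fold limit, leaving 0 NR4A genes past the cut-off. Nr4a3 stayed between -0.54 and -0.41 when any 1 mouse was left out (edgeR, highest unadjusted p = 0.00454).

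**Figure D5:**
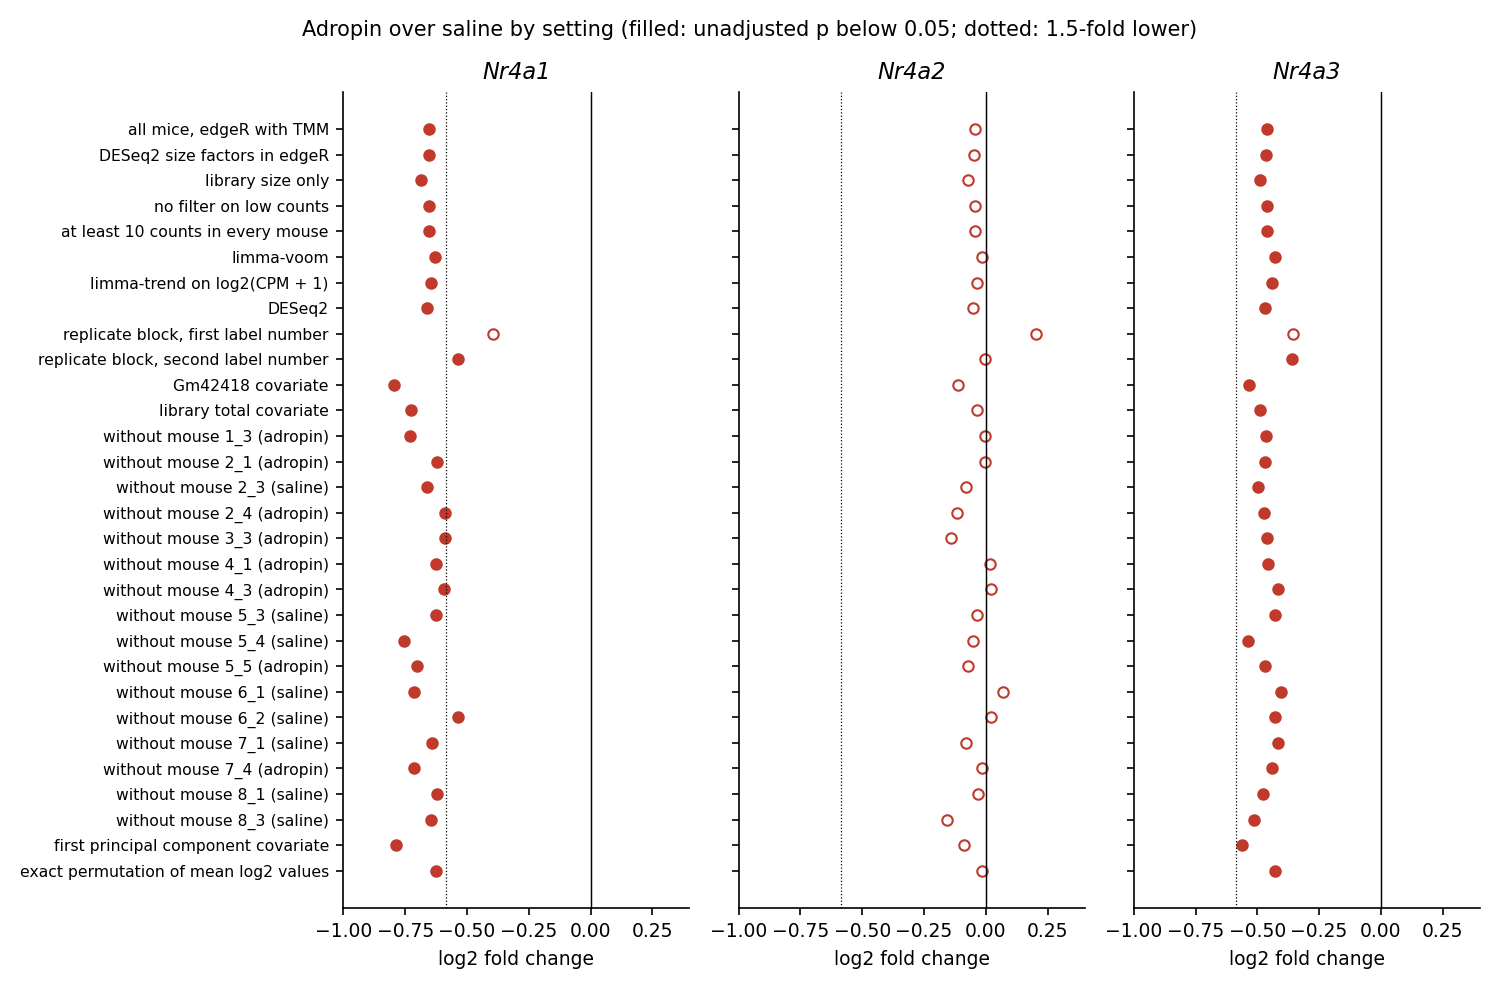
Log2 fold change of adropin over saline (horizontal axis) of each NR4A gene under each setting (vertical axis), filled where the unadjusted p was below 0.05, with the dotted line at a 1.5-fold lower level. Nr4a1 and Nr4a3 are left of 0 in every setting and open only when mice were blocked by their first label number, and Nr4a2 is open throughout and near 0.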

How the data were processed

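Poly-A RNA of 16 brain samples was sequenced. Reads were aligned to GRCm38 with STAR, and the authors deposited raw counts of uniquely aligned reads per gene from featureCounts, with no normalization. Whether counting used strand is not given in the sources used here. The second deposited table holds these counts scaled by library and was not used. Repeated entries, 276 of 40757, were dropped.

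TMM factors were calculated over all genes. The 355 genes annotated as rRNA were left out and the others were kept where 7 or more mice exceeded 1 CPM. Groups were compared with edgeR 4.0.16 (quasi-likelihood, Benjamini-Hochberg adjustment over 14950 genes), checked on simulated data. Correlations used log2 TMM-normalized CPM (prior count 2), 100000 permutations within groups, and all 40320 orders within a group. Exact group tests used all 12870 divisions of the mice. Marker scores are mean z-scores. Coordinates are from GENCODE (GRCm38) and promoters from RefSeq.

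The members and lists were chosen with earlier results of these data known. Named genes are the NR4A genes, list members with an unadjusted p below 0.05 (at most 8 per list), the extreme nuclear receptors, the 2 nearest tested genes on either side, the 5 most correlated genes, 6 activity-dependent genes, Gm42418 and markers at or near 0. Rxr genes, Creb1, Th, Ddc, Slc18a2, Ret, Rora, Hspa5, Egr3, Homer1, Snap25, Calb1, Cbln1, Car8, and Ttr were named after their values were seen. Alternatives were limma-voom and limma-trend (limma 3.58.1), DESeq2 1.42.0, DESeq2 factors, library size only, other filters, blocks, covariates and leaving out each mouse. Library totals of 35026503 to 70314050 limit precision little for these genes.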

Additional observations from a re-analysis of the deposited data

Results flagged for a closer look

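Among 49 named genes, each examined in both groups of 8 mice, 5 of 98 groups held a mouse whose gap to the nearest other mouse was large for the group's range, where chance gives about 4.9. Adropin mouse 5_5 accounted for 4 of them, all in activity-dependent genes. It had 68.7 TMM-normalized CPM of Npas4 (next highest 36.2), 30.0 of Fosb (22.0), 54.4 of Egr4 (40.3) and 18.5 of Ccn1 (10.8). In the same mouse Nr4a1 was 147, the third highest of its group, and Nr4a3 was 29.7. Saline mouse 8_3 had 56.7 TMM-normalized CPM of Ap1m1, a gene correlated with Nr4a2, where the next lowest saline mouse had 65.6. No NR4A gene had such a mouse in either group.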

How the results depend on the processing

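The log2 fold changes of Nr4a1 and Nr4a3 kept their direction under every alternative run. Labels share numbers between groups, but same-numbered mice did not deviate together (correlations of deviations 0.10, -0.14 and -0.08 for the 3 shared first numbers and 0.22, -0.27 and -0.49 for the 3 shared second numbers), so neither number was taken to pair mice. With the first label number as a replicate block the log2 fold changes were -0.39 for Nr4a1, 0.20 for Nr4a2 and -0.36 for Nr4a3, with unadjusted p-values from edgeR of 0.207, 0.421 and 0.0899. Only first numbers 2, 5 and 7 were held by mice of both groups, so mice with other first numbers did not inform that contrast. Within numbers 2, 5 and 7 the log2 differences of Nr4a1 were -0.915, 0.21 and -0.347. Those of Nr4a3 were -0.14, -0.103 and -0.912. With the second number as a replicate block Nr4a1 was at -0.54 and Nr4a3 at -0.36, with unadjusted p-values from edgeR of 0.0270 and 0.0150. With either number as a replicate block, and without saline mouse 6_2, 0 NR4A genes passed the cut-off. Second number 2 was held by mouse 6_2 alone and second number 5 by adropin mouse 5_5 alone, so neither informed the second-number contrast. Why the estimates moved was not tested. Of all genes, 64 passed the cut-off, 1353 with no filter on low counts, 28 with limma-trend, and 50 to 108 when 1 mouse was left out (108 without adropin mouse 4_3, 97 without saline mouse 5_3). In the lower and higher directions these were 62 and 46 without mouse 4_3, and 48 and 49 without mouse 5_3. Leaving out 1 mouse gave 0 to 1 NR4A genes past the cut-off and log2 fold changes of -0.76 to -0.54 (Nr4a1), -0.16 to 0.0715 (Nr4a2) and -0.54 to -0.41 (Nr4a3). Nr4a2 was above 0 without adropin mouse 4_1 (0.02) or 4_3 (0.02), or saline mouse 6_1 (0.0715) or 6_2 (0.02). Differences of log2 fold changes ranged from -0.78 to -0.44 (Nr4a1 minus Nr4a2; exact permutation p below 0.05 without saline mouse 5_4 or 6_1), -0.32 to -0.12 (Nr4a1 minus Nr4a3) and 0.31 to 0.51 (Nr4a2 minus Nr4a3; p below 0.05 without adropin mouse 4_1 or saline mouse 5_4). Correlations ranged from -0.30 to -0.02 (Nr4a1, Nr4a2), 0.00818 to 0.59 (Nr4a1, Nr4a3) and 0.42 to 0.71 (Nr4a2, Nr4a3), the last 0.71 without saline mouse 5_4 and 0.61 without 7_1. For Nr4a1 and Nr4a3 r was 0.63 with group means left in (permutation p = 0.00994) and -0.13 without the 2 farthest mice.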

Other observations

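Genes beside the NR4A loci were also read. Of the 12 nearest tested genes, 2 on either side of each member, 0 had an unadjusted p below 0.05 (edgeR), a limit that 4.01% of all genes reached, so that few would be called among 12 in any case. Around Nr4a1 these were A330009N23Rik (log2 fold change 0.02), Grasp (-0.10), Atg101 (-0.05) and Krt80 (0.37, standard error 0.33). Around Nr4a2 they were Gm26794 (0.25), Kcnj3 (0.06), Gpd2 (0.02) and Gm13532 (-0.14). Around Nr4a3 they were Alg2 (0.03), Sec61b (-0.15), Stx17 (0.14) and Erp44 (-0.03).

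Endoplasmic reticulum chaperones, a group that NR4A proteins are known to act on in hippocampal neurons, were also read. All 13 were tested, 0 had an unadjusted p below 0.05 in either direction (edgeR, 4.01% of all genes), and the median log2 fold change was -0.04. Hspa5, the main chaperone of the group, averaged 185 ± 22.7 TMM-normalized CPM with adropin and 191 ± 26.5 with saline (SD over 8 mice each).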
